A study of Homo sapiens with 15 samples.

Results

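The baseline expression profile of untreated THP-1 cells was read from the 3 arrays labelled as unstimulated, of 15 arrays in all. They were taken at 0 h. Their titles carry the numbers 2, 3 and 4 of a count that runs on over all arrays, and they are called replicates 2, 3 and 4 here. The other 12 arrays hold cells exposed to infliximab or CDP870 for 6 or 24 h, 3 arrays each, and were not analysed here. THP-1 is an established cell line that grew out of a human acute monocytic leukaemia. It carries a fusion of KMT2A with MLLT3 and serves as a model of monocytes. All groups share this line, and the labels name no other agent or genetic change and no selection of cells. According to the design text, replicates within each group are biological, but nothing in the labels describes separate cultures. The SDs below therefore cover the spread between these 3 samples only, and so few arrays limit the precision.

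Untreated THP-1 cells kept the immature myeloid programme at the top of the array. Genes of the primary granule proteins elastase, cathepsin G, proteinase 3 and azurocidin lay in the top 1% of all probe sets, and so did the transcription factors MYB, CEBPA and IRF8. Monocyte and macrophage markers were divided, with LYZ, CD93 and CCR2 high and CD36, CD163 and MRC1 near the array's background. Most genes of DNA replication, mitosis, the citrate cycle and the respiratory chain were high, against 16.5% of all genes. Of cytokine and chemokine genes, 53.5% lay near the array's background, against 31.5% of all genes.

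Myeloid cells mature in stages that leave different transcripts behind. Promyelocytes transcribe the genes of the primary granule proteases and stop as they mature, late granulocytes make the proteins of secondary and tertiary granules, and monocytes acquire the receptors for bacterial products, antibodies and modified lipids. PU.1 (the product of SPI1), the C/EBP factors and IRF8 set up these programmes, while MYB sustains proliferating progenitors. Leukaemias with a KMT2A fusion keep HOX cofactors, MYB and MEF2C active.

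Each gene was placed by its log2 value within the values of the same array. The highest probe set stood for a gene, which gave 19775 genes. A gene was called high where it lay at or above the 90th percentile on all 3 arrays, counted over each array's 54613 non-control probe sets, and upper where it lay at or above the 75th on all 3 without being high. It was called near background where it lay below the 50th percentile on all 3, and middle in every other case. By these limits 3262 genes (16.5%) were high, 4223 (21.4%) upper, 6051 (30.6%) middle and 6239 (31.5%) near background. The counts of each list below stand against these shares of all genes. The median gene lay at percentile 66.2, above 50 because the highest probe set was taken. Of the high genes, 815 also had a probe set near background, so a class holds for the probe set that was read. Probes differ in how strongly they bind, so a percentile gives a gene's place on the array and not an amount that can be compared with that of another gene. In a bulk culture, fewer cells with a transcript and less of it per cell cannot be told apart.

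Gene families of smell, taste and hair served as a reference for background. Of 154 measured genes for olfactory receptors, taste receptors and keratin-associated proteins, 117 (76%) lay near background, 34 in the middle, 3 in the upper class and 0 in the high class. Their median log2 value was 1.91, and their 95th percentile of 3.94 stood at percentile 64.0 of the array. Values between the 50th percentile and that point were therefore also reached by such genes, so the middle class holds genes whose transcript was not separated from background. The histograms of gene levels show both distributions.

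**Figure D1:**
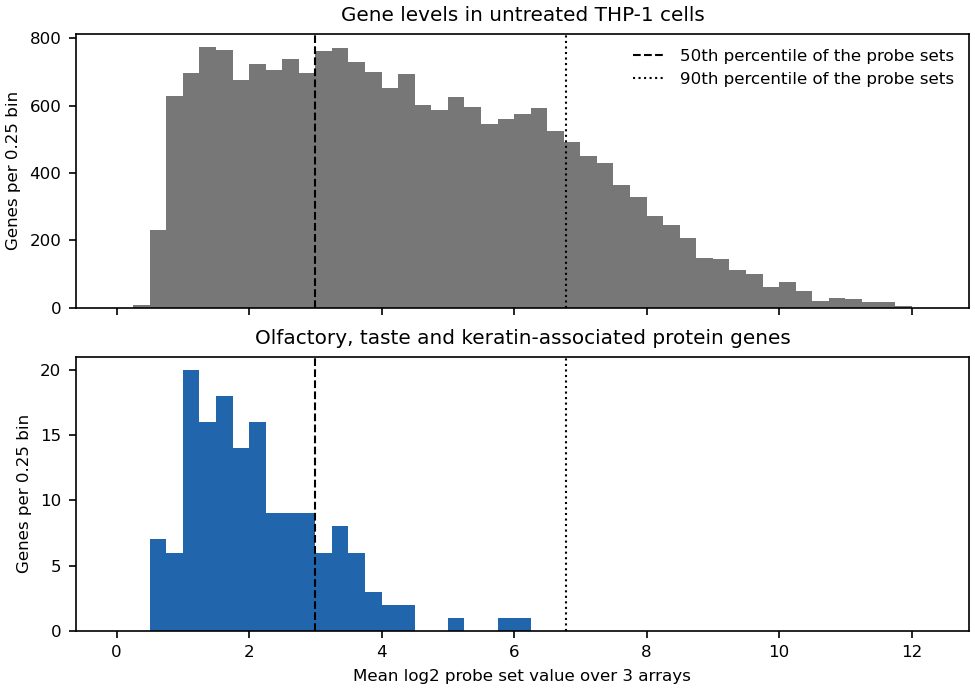
Numbers of genes (vertical axis) by mean log2 probe set value over the 3 untreated arrays (horizontal axis, bins of 0.25), for all 19775 genes above and for 154 olfactory receptor, taste receptor and keratin-associated protein genes below. Vertical lines mark the mean 50th (dashed) and 90th (dotted) percentiles of the probe sets; none of the 154 genes was in the high class.

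The arrays were alike, with replicate 3 somewhat apart. Their medians were 2.96, 3.07 and 2.96 and their 90th percentiles 6.79, 6.75 and 6.80 for replicates 2, 3 and 4, and this order is kept for every run of 3 values below. Over all genes, Pearson's r was 0.9969 between replicates 2 and 4, 0.9929 between 2 and 3, and 0.9927 between 3 and 4. The median SD of a gene was 0.14. Of the 97 genes with an SD over 0.5, replicate 3 was the farthest array in 88. Middle genes were higher on replicate 3 by a median of 0.13 and near-background genes by 0.09, against 0.01 for high genes. The 3′ minus 5′ differences of ACTB lay between -0.12 and -0.04 and those of GAPDH between -0.06 and -0.02, and the mean hybridisation spike-in was 7.56, 7.73 and 7.70. The part of any technical difference in the values of replicate 3 was not tested. Without replicate 3 the high class held 3442 genes and the near-background class 6442.

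The primary granule and immature myeloid list had the largest share of high genes among the lineage lists. Of 15 measured genes, 11 were high (73.3% against 16.5% of all genes), 1 upper, 2 middle and 1 near background, and their median percentile was 98.9. The members were chosen with earlier results of these data known, so this share is a description only. Besides granule protein genes, the high ones include IGFBP2, CLEC11A and CALR. ELANE, which encodes neutrophil elastase, read 11.19, 11.41 and 11.26, a mean of 11.29 ± 0.11 (SD, n = 3). CTSG, the gene of cathepsin G, read 11.07, 11.31 and 11.13, and PRTN3, that of proteinase 3, averaged 10.89 ± 0.10 (SD, n = 3). AZU1, whose product azurocidin is a protease homologue without catalytic activity, read 10.75, 10.94 and 10.71. All 4 were high on each array, with replicate 3 the highest each time. SRGN, the proteoglycan core on which granule proteins are packed, was among the 30 highest genes of the array at 11.70 ± 0.04 (SD, n = 3). MS4A3, a membrane protein of granulocyte-monocyte progenitors, stood at 10.18 ± 0.13 and the ribonuclease gene RNASE2 at 9.99 ± 0.14 (SD, n = 3 each).

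MPO, the gene of myeloperoxidase and the best known protein of the same granules, was not in the high class. Its higher probe set of a pair read 4.60, 5.12 and 4.87, which is middle. CST7, encoding the cathepsin inhibitor cystatin F, was also in the middle at 4.03, 4.30 and 4.08. CPA3, a mast cell carboxypeptidase gene, lay near background at 1.44 ± 0.15 (SD, n = 3). The defensin gene DEFA4 was in the upper class.

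The protease genes lie side by side in the genome. In RefSeq's gene order on chromosome 19, AZU1, PRTN3, ELANE and CFD follow each other, and all 4 were high. CFD encodes complement factor D, also a serine protease, and read 9.51, 9.78 and 9.52. The genes on either side of this run, PLPPR3 and MED16, were in the upper class at percentiles 83.6 and 81.5. The next genes outward, PTBP1 and R3HDM4, were high at percentiles 99.2 and 94.5. CTSG, in contrast, was the 1 high gene among the proteases beside it on chromosome 14. Its neighbours CMA1 (mast cell chymase) and GZMH lay near background at 2.80 and 2.42, and GZMB was in the middle at 3.63. These neighbours were chosen after the levels of the proteases had been seen.

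Late granulocyte genes were not high. Of 20 measured members 0 were high, 2 upper, 9 middle and 9 near background (45%). CEACAM8, a surface antigen of maturing neutrophils, read 0.40, 0.54 and 0.70, at the 1.2 percentile. The secondary granule gene LTF (lactoferrin) read 2.52, 3.10 and 2.78, and LTF was near background without replicate 3. CAMP, the cathelicidin gene, was in the middle at 4.14 ± 0.15, and OLFM4 and CRISP3 were near background at 0.89 ± 0.04 and 1.07 ± 0.10 (SD, n = 3 each).

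Monocyte and macrophage markers were divided. Of 31 measured genes, 10 were high (32.3%), 5 upper, 6 middle and 10 near background (32.3%), with a median percentile of 58.4. The high members were LYZ, S100A8, MNDA, CD93, TYROBP, CCR2, AIF1, CTSS, S100A9 and CD1D. LYZ, the lysozyme gene, read 9.26, 9.55 and 9.29. S100A8 and S100A9, which encode the subunits of calprotectin, read 9.24, 9.30 and 9.06 and 7.67, 7.87 and 7.48. TYROBP, the adaptor that couples many activating receptors, read 8.30, 8.56 and 8.27. These genes were above the 90th percentile on every array, although S100A8 was in the middle class on its other probe set.

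Other receptors of the monocyte surface were middle or near background. CD14, the co-receptor for bacterial lipopolysaccharide, read 2.71, 3.16 and 2.29. It was above the array median on replicate 3 only, so it was called middle with all arrays and near background without replicate 3. ITGAM, the alpha chain of Mac-1, read 3.37, 3.60 and 3.07 and was in the middle class. The scavenger receptor genes CD36 (2.47, 2.42 and 2.76) and CD163 (2.16, 2.11 and 1.60) were near background on each array. FCN1, VCAN, S100A12, MSR1, MRC1 and CLEC5A were near background too, with CLEC5A lowest at 0.79 ± 0.06 (SD, n = 3). Between these sides stood CD4, which human monocytes also carry, at 6.58, 6.72 and 6.77, and CSF1R, the receptor for macrophage colony-stimulating factor, at 5.21, 5.49 and 5.18, both upper. With its middle probe set CD4 was near background. The dot plot of myeloid genes shows these steps on each array.

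**Figure D2:**
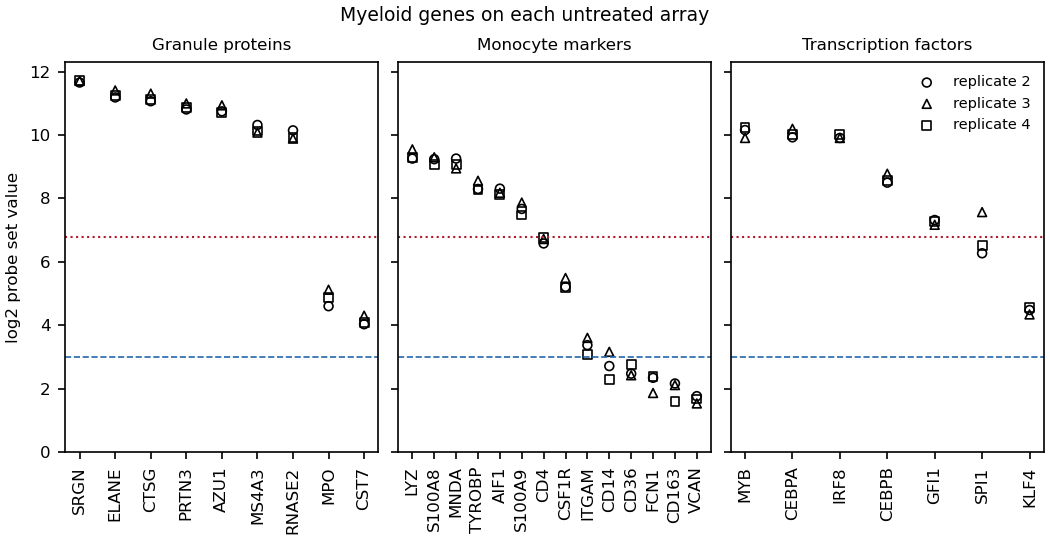
Log2 probe set values (vertical axis) of granule protein, monocyte marker and transcription factor genes (horizontal axis) on untreated replicates 2 (circle), 3 (triangle) and 4 (square); lines mark the mean 50th (dashed) and 90th (dotted) percentiles of the probe sets. ELANE, CTSG, PRTN3 and AZU1 lie above 10 on all arrays, CD14 straddles the dashed line, and SPI1 differs most between arrays.

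The promoters of these myeloid genes were poor in CpG. In RefSeq's GRCh38.p14 table, 15384 of the 19775 genes had a promoter, read here as 250 bases before the start of the gene. The ratio of observed to expected CpG had a median of 0.86 in high genes, 0.84 in upper genes, 0.70 in middle genes and 0.43 in near-background genes. It was at least 0.6 in 86.9%, 83.8%, 60.2% and 39.4% of them. The 8 high genes of the granule and immature myeloid list with a promoter had a median of 0.32. Besides granule protein genes, these 8 include MS4A3, IGFBP2, CLEC11A and CALR, and CALR (0.78) was the 1 at or above 0.6 (12.5%). The 7 high monocyte genes had a median of 0.21, with 0%. Both medians lay below the 0.43 of near-background genes. Low medians were also found in lists whose genes were mostly not high. T cell markers had 0.32, Toll-like receptor and co-receptor genes 0.35 and all 22 monocyte markers 0.23. The following 120 bases before the start (5′ to 3′ on the gene's strand) are shown for PRTN3, CTSG and CD14. PRTN3 and CTSG are high proteases and the 2 genes of the granule list that hold the sequence GAGGAAG. The high gene AZU1, not shown, lacks it, and CD14 was not high. Capitals mark GAGGAAG, a purine-rich sequence of the kind bound by PU.1, or its reverse complement CTTCCTC, and CCAAT (here as ATTGG), the sequence bound by NF-Y.
PRTN3, chr19:840879-840998, plus strand: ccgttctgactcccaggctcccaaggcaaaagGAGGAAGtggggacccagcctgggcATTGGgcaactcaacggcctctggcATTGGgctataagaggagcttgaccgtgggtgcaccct
CTSG, chr14:24576251-24576370, minus strand: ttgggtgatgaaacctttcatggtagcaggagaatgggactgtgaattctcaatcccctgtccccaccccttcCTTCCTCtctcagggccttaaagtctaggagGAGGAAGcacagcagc
CD14, chr5:140633176-140633295, minus strand: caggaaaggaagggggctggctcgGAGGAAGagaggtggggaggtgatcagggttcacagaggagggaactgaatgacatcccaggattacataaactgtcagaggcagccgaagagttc

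GAGGAAG was present on either strand in the 250 bases of 9 of 22 monocyte marker promoters (40.9%), against 11% of all 27305 promoters. In the granule and immature myeloid list it was present in 2 of 9 (22.2%), and these were the printed PRTN3 and CTSG. The promoters of AZU1, RNASE2 and MS4A3, also high, did not hold GAGGAAG. The Toll-like receptor list held it in 5 of 10 (50%) and the T cell list in 1 of 12 (8.33%). Classes differed little in it, with 12.1% of high and 11.7% of near-background genes. In the printed stretches it starts 88 bases before the start of PRTN3, at 47 and 16 bases in CTSG and at 96 bases in CD14. A match is only a description of the letters, and CD14 shows that it was also found in a promoter of a gene that was not high. The base sequence TATAAA was found in 5.39% of high and 14.4% of near-background promoters, against 8.31% of the promoters of all measured genes. Motifs were counted on both strands, and a match that overlapped another motif was counted for each.

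Regulators of myeloid fate were mostly high or upper. Of 24 measured myeloid transcription factor genes, 9 were high (37.5%), 9 upper, 5 middle and 1 near background, with a median percentile of 89.2. MYB, the progenitor factor, read 10.16, 9.91 and 10.23 on its better probe set and was middle with the other. CEBPA, which commits cells to the granulocyte and monocyte lines, read 9.93, 10.20 and 10.02. IRF8, needed for monocyte development, read 9.91, 9.91 and 10.01. Those 3 genes were in the top 1% of probe sets on these arrays. CEBPB (8.62 ± 0.15) and GFI1, a repressor of monocyte genes (7.26 ± 0.08, SD, n = 3 each), were high as well. KLF4, a factor of monocyte differentiation, was in the middle at 4.46 ± 0.12, and MAF, known from macrophages, was near background at 1.98.

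SPI1 differed more between the arrays than nearly all other genes. It read 6.27, 7.57 and 6.51, an SD of 0.69, and was above the 90th percentile on replicate 3 only. Among the 15 genes with the largest SD of those high or upper on at least 1 array, replicate 3 was the farthest array in 15. It was the highest for SPI1, CD74, TGFB1 and HNRNPL and the lowest for FOLR1 (6.56, 4.80 and 6.54), SGO2 and PTPN22.

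The KMT2A fusion programme lay largely in the high and upper classes. Of 19 measured genes, 5 were high (26.3%), 9 upper, 4 middle and 1 near background, and 8 were high without replicate 3. The high members were MYB, MYC (9.14 ± 0.10), CDK6 (8.79 ± 0.13), the HOX cofactor gene PBX3 (7.87 ± 0.06, SD, n = 3 each) and AFF1. With its middle probe set CDK6 was in the middle class. MEF2C read 7.28, 6.69 and 7.31, so that it was upper with all arrays and high without replicate 3. Of the fusion partners, MLLT3 was upper at 5.17, 5.01 and 5.14 but near background on probe sets not named _s_at, _x_at or _a_at. KMT2A, covered by 11 probe sets, was middle at 4.77, 4.98 and 4.87, and near background on its middle probe set. Whether these probe sets read the fusion transcript was not analysed here. MEIS1, the other well known HOX cofactor, was in the middle at 4.03 ± 0.13 (SD, n = 3), and EYA1 was near background.

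HOX genes differed by cluster. HOXB members were mostly in the middle, with 1 of 10 upper (HOXB7, 5.09, 5.28 and 4.92), 8 middle and 1 near background (2 without replicate 2). HOXC members were middle in 5 of 9 and near background in 4. HOXD members were near background in 7 of 8, with HOXD9 as the middle one at 3.51 ± 0.10 (SD, n = 3). No member of these clusters was high on these arrays, and the HOXA cluster was represented by HOXA2 alone, near background at 1.24.

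Stem and progenitor genes lay mostly in the middle or near background. Of 20 measured, 2 were high (10% against 16.5% of all genes), 2 upper, 9 middle and 7 near background (35% against 31.5%). LMO2, a bridging protein of stem and progenitor cells, read 8.63, 8.62 and 8.75 on its better probe set and was in the middle on the other. FLT3 read 6.53, 6.29 and 6.61 and was upper. CD34, the common progenitor antigen, read 2.68, 3.35 and 2.85 and was near background without replicate 3. MECOM and PROM1 were near background at 1.31 ± 0.19 and 0.91 ± 0.11 (SD, n = 3 each).

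Markers of other blood lineages were not high. None of the 19 T cell, 18 B cell, 15 NK cell, 13 erythroid, 13 megakaryocyte and 18 dendritic cell genes measured was in the high class. Near background lay 9 T cell genes (47.4%), 11 B cell genes (61.1%), 8 NK cell genes (53.3%), 4 erythroid genes (30.8%), 5 megakaryocyte genes (38.5%) and 8 dendritic cell genes (44.4%). With 31.5% of all genes near background, the erythroid share was below that of all genes. Upper members included LAT, PAX5, NKG7, PRF1, EPOR, GATA1 and BATF3. NKG7, a protein of cytotoxic granules, read 5.97, 6.22 and 6.15. PAX5, the B cell factor, read 5.22, 5.52 and 5.21, while MS4A1, which encodes CD20, was near background at 1.88, 2.07 and 1.76. CD3D was in the middle at 4.46, 4.12 and 4.14 and CD2 near background at 2.16, 1.73 and 1.73.

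Epithelial genes were spread over the classes at shares near those of all genes. Of 16 measured, 3 were high (18.8%, against 16.5% of all genes), 2 upper, 7 middle and 4 near background (25%, against 31.5%). KRT18 read 8.15, 8.43 and 8.14, KRT8 read 6.97, 7.19 and 7.05, and KRT5 read 6.95, 7.24 and 6.91. KRT8 and KRT18 encode the keratin pair of simple epithelia and KRT5 a keratin of basal cells, and each gene has 1 probe set here. The adhesion gene EPCAM was upper at 5.99, 6.04 and 6.06. CDH1, which encodes E-cadherin and defines most epithelia, was near background at 2.28, 2.25 and 2.26, as were KRT14, GRHL2 and KRT20. Whether any of the keratin signal came from other cells was not tested.

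Stromal and vascular markers were mostly middle or near background. Of 16 fibroblast genes 0 were high and 8 near background (50%), with COL1A1 upper at 5.47, 5.89 and 5.66 and COL3A1 near background at 2.06. With its middle probe set COL1A1 was near background. PECAM1 was the 1 high gene of 15 endothelial markers, at 7.31, 7.33 and 7.43, on 1 of its 5 probe sets. It encodes CD31, which monocytes also carry, and the endothelial genes CDH5 and KDR were near background at 2.65 ± 0.12 and 1.39 ± 0.09 (SD, n = 3 each). In the liver and neuronal list MBP was high at 7.55 ± 0.08, on 2 of 9 probe sets, and ALB near background at 1.54 ± 0.16 (SD, n = 3 each). The strip plot of lineage genes sets these lists side by side.

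**Figure D3:**
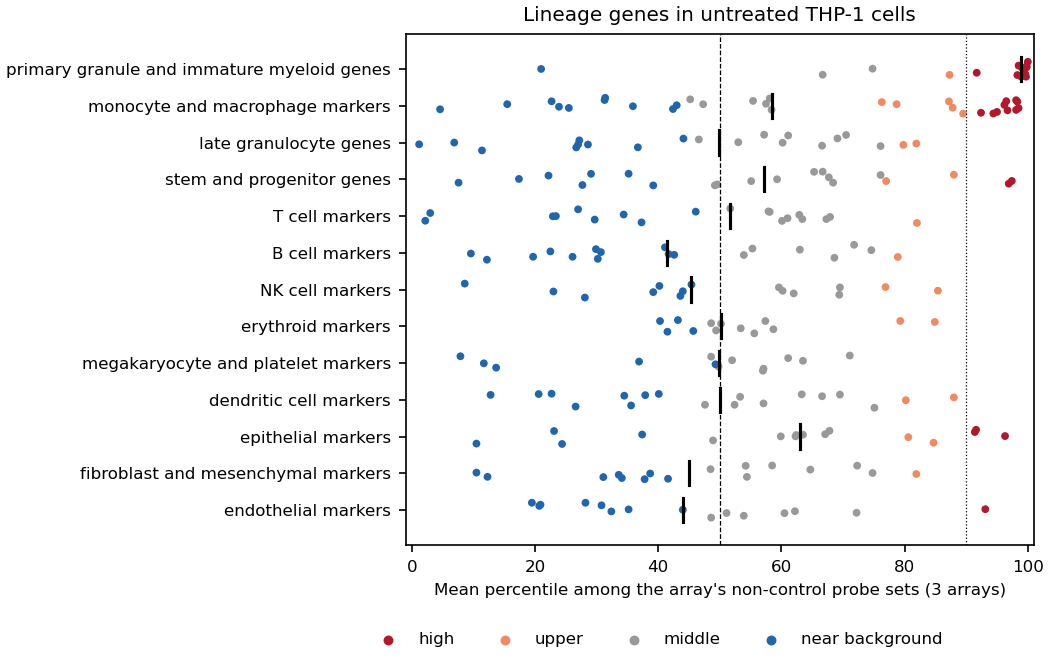
Mean percentile among the array's non-control probe sets (horizontal axis, mean of 3 untreated arrays) of each measured gene in 13 lineage lists (vertical axis); colour gives the class, black bars the list median, and lines the 50th and 90th percentiles. The granule list has its median at 98.9, while B cell and endothelial lists have theirs at 41.4 and 44.0.

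Pattern receptors for microbes were sparse. Of 16 Toll-like receptor and co-receptor genes, 1 was high (6.25%), 2 upper, 5 middle and 8 near background (50%). TLR2, the receptor for bacterial lipoproteins, was the high one at 7.32, 6.97 and 7.38. TLR1, a partner of TLR2, was near background at 1.35, 1.50 and 1.59, and TLR6, the other partner, read 2.82, 3.19 and 2.95 and was near background without replicate 3. TLR4, the lipopolysaccharide receptor, was in the middle at 4.50, 3.68 and 4.53 and lowest on replicate 3. LY96, which encodes its partner MD-2, was near background at 0.83, 0.93 and 0.61, the 5.0 percentile. TLR3, TLR5, TLR7, TLR8 and TLR10 were near background as well.

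Cytosolic sensing had a few high members. Of 27 genes, 3 were high (11.1%, against 16.5% of all genes), 7 upper, 12 middle and 5 near background. PYCARD, the inflammasome adaptor ASC, read 8.60, 9.04 and 8.64, STING1 read 8.12, 8.38 and 8.15, and CASP1, the protease that matures interleukin-1 beta, read 7.64, 7.32 and 7.40. CASP1 was middle on probe sets not named _s_at, _x_at or _a_at. NLRP3 was upper at 6.69, 6.89 and 6.72, close to the 90th percentile. AIM2, a DNA sensor, and NLRC4, a flagellin sensor, were near background at 1.42 ± 0.06 and 2.20 ± 0.17 (SD, n = 3 each).

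Infliximab has an Fc part and CDP870 has none, so the Fc receptors of the untreated line were read as a group. Of 14 measured Fc receptor genes, 3 were high (21.4%, against 16.5% of all genes), 3 upper, 5 middle and 3 near background (21.4%, against 31.5%). FCGR3A and MS4A2 were listed but not measured, so nothing can be said here of the IgG receptor CD16 that FCGR3A encodes. The high ones were FCGR1BP at 8.41, 8.59 and 8.45, FCER1G, the common gamma chain, at 7.41, 7.38 and 7.09, and FCGRT, the neonatal Fc receptor that recycles IgG, at 7.11, 7.37 and 7.10. The probe set named FCGR1A, the high-affinity receptor CD64, read 2.08, 2.28 and 1.86. FCGR1BP is a near-identical copy of FCGR1A, so which of them gave the high signal is uncertain. FCGR2A was upper at 5.67, 5.60 and 5.63, with the same doubt towards FCGR2C, also upper. With its middle probe set FCGR2A was near background. FCGR2B, the inhibitory receptor, was above the array median on replicate 3 only, at 2.76, 3.19 and 2.71, and so middle with all arrays and near background without replicate 3.

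TNF itself was not high while its receptor TNFRSF1A was. TNF read 4.40, 4.20 and 3.77, which is middle at percentile 66.4. TNFRSF1A, the widely expressed receptor, read 7.64, 7.95 and 7.69, and TNFRSF1B, the second receptor, was upper at 6.17, 6.37 and 6.30. ADAM17, the protease that sheds TNF and its receptors, read 6.85, 6.93 and 6.77 and was just below the 90th percentile on replicate 4. Of 20 genes around TNF, 4 were high (20%, against 16.5% of all genes), 8 upper, 7 middle and 1 near background. The other high ones were RBCK1, BIRC2 and CFLAR, which act in the signalling complex below the receptor, and the near-background one was TRAF1.

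**Figure D4:**
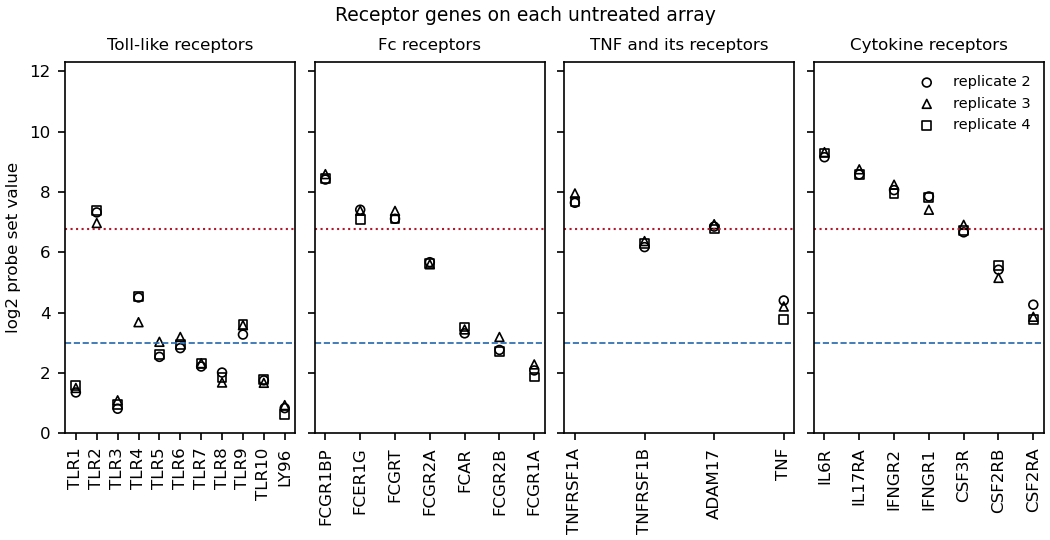
Log2 probe set values (vertical axis) of Toll-like, Fc, TNF and cytokine receptor genes (horizontal axis) on untreated replicates 2 (circle), 3 (triangle) and 4 (square), with the mean 50th (dashed) and 90th (dotted) percentiles. TLR2, FCGR1BP, TNFRSF1A and IL6R lie above the dotted line on all arrays, and LY96 and FCGR1A below the dashed one.

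Receptors for cytokines were spread over the classes. Of 47 interleukin and colony-stimulating factor receptor genes, 5 were high (10.6%, against 16.5% of all genes), 14 upper, 15 middle and 13 near background. IL6R read 9.15, 9.32 and 9.29, IL17RA read 8.58, 8.75 and 8.58, and IFNGR2 read 8.06, 8.24 and 7.95. IL6ST, which encodes the gp130 chain that signals for IL6R, was upper at 5.45. Both chains of the interferon gamma receptor were high, with IFNGR1 at 7.85, 7.41 and 7.82 on 1 of 3 probe sets. CSF3R and CSF2RB were upper at 6.76 ± 0.13 and 5.38 ± 0.21, and CSF2RA was middle at 3.96 ± 0.27 (SD, n = 3 each).

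Genes of chemokine receptors and of cytokines and chemokines were high less often than all genes. Of 32 chemokine and chemoattractant receptor genes, 2 were high (6.25%, against 16.5% of all genes), 4 upper, 12 middle and 14 near background. CXCR4, which holds cells in the bone marrow, read 8.76, 8.58 and 8.76, and CCR2, the receptor of classical monocytes, read 8.45, 8.02 and 8.38. C5AR1, the receptor for the complement fragment C5a, was near background at 0.85, 0.97 and 0.98. Among 43 cytokine and chemokine genes, 2 were high (4.65%), 3 upper, 15 middle and 23 near background (53.5% against 31.5%). MIF, a cytokine stored in resting cells, read 10.08, 10.45 and 9.97, and CCL5 read 7.81, 8.10 and 7.73 and was high on all 3 of its probe sets. IL6, IL10, CCL2 and CXCL10 were near background at 2.70, 1.44, 2.64 and 2.04, and CXCL8 and IL1B were in the middle at 3.89 and 3.64.

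RET was the 1 high gene among 55 receptor tyrosine kinases. It encodes the receptor for glial-derived ligands and read 7.62, 7.68 and 7.76, on 1 of 3 probe sets. In the rest of that list 6 genes were upper, 34 middle and 14 near background, with INSR, the insulin receptor gene, upper at 6.69 ± 0.11. MET was near background at 2.58 ± 0.23 (SD, n = 3 each). Of 39 nuclear receptor genes, 1 was high (RXRA, 6.99, 7.05 and 6.84), 10 upper, 16 middle and 12 near background. NR3C1, the glucocorticoid receptor gene, was upper at 6.73, 6.66 and 6.78, as were VDR at 6.58 and PPARG at 5.53.

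Integrin subunits were mostly in the middle class. Of 25 subunit genes, 5 were high (20%, against 16.5% of all genes), 3 upper, 15 middle and 2 near background. ITGB2, the common chain of the leukocyte integrins, read 9.04, 9.28 and 9.26, while its partners ITGAL, ITGAM and ITGAX were upper, middle and middle. ITGA4 and ITGA5 were high at 7.72 ± 0.16 and 7.38 ± 0.06 (SD, n = 3 each). ITGB1 was high at 9.22, but near background on probe sets not named _s_at, _x_at or _a_at. LAIR1, an inhibitory collagen receptor, was the 1 high gene of 29 in the Siglec and leukocyte immunoglobulin-like receptor list, at 8.95, 9.10 and 8.94.

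Subunits of the NADPH oxidase, which makes the superoxide of phagocytes, were spread over all classes. Among 16 NADPH oxidase genes 4 were high (25%, against 16.5% of all genes), 3 upper, 4 middle and 5 near background. CYBA, the small membrane subunit, read 9.96, 10.32 and 9.87 but was middle on probe sets not named _s_at, _x_at or _a_at. RAC2 and NCF4 were high at 10.03 ± 0.17 and 7.57 ± 0.16 (SD, n = 3 each). CYBB, the catalytic subunit of phagocytes, was upper at 4.91, 5.14 and 5.10, but near background with its middle probe set. NOX1 and NOX4, catalytic subunits of other tissues, were near background. In the eicosanoid list of 21 genes, 3 were high (14.3%, against 16.5% of all genes) and 8 near background. ALOX5AP, which presents arachidonate to 5-lipoxygenase, stood at 9.94 ± 0.07 (SD, n = 3), but ALOX5 itself read 2.91, 3.14 and 2.97, at the array median. PTGS2, the inducible cyclooxygenase gene, was near background at 1.43, 1.50 and 1.49.

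Antigen presentation separated by class. Of 18 class I genes, 14 were high (77.8%), 3 upper and 1 near background, and B2M stood at 11.10 ± 0.04, though near background on probe sets outside those 3 types. HLA-B and HLA-C read 10.73 ± 0.01 and 10.75 ± 0.06 (SD, n = 3 each), with the caution that probes for HLA genes cross-react between them. ERAP2, a peptide-trimming enzyme, was the near-background one at 2.35, on 5 of 5 probe sets. Of 19 class II genes, 6 were high (31.6%), 5 upper, 6 middle and 2 near background. HLA-DRA read 8.32, 8.08 and 8.19, and CD74, the invariant chain, read 8.05, 9.18 and 7.97, again apart on replicate 3. CIITA, the master regulator of class II, was in the middle at 3.45 ± 0.12, and the co-stimulatory genes CD86 and CD80 were middle and near background at 3.55 ± 0.20 and 2.30 ± 0.32 (SD, n = 3 each).

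More lysosomal genes were high than not. Of 29 measured, 17 were high (58.6%), 6 upper, 2 middle and 4 near background, with LAMP1 at 10.12 ± 0.09 and CD63 at 10.06 ± 0.07 (SD, n = 3 each). CTSC, the protease that activates the granule enzymes, read 8.30, 8.40 and 8.31. Near background were CTSK, the osteoclast protease gene, and LGMN, CTSO and LAMP3. S100 and annexin genes were high in 12 of 26 (46.2%), led by S100A11 (9.76) and S100A4 (9.61), and of 20 matrix metalloproteinase and inhibitor genes 2 were high, TIMP1 (7.78) and TIMP2. Complement and coagulation genes were high in 2 of 26, CFD and CD46.

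Energy metabolism lay high as a block. Of 25 respiratory chain and ATP synthase genes, 21 were high (84%), 1 middle and 3 near background. The 4 that were not high, COX4I2, COX6A2, COX7A1 and COX8C, are tissue-restricted subunit forms. COX4I1 read 10.69, 10.90 and 10.68, but was middle with its middle probe set and on probe sets not named _s_at, _x_at or _a_at. The lung form COX4I2 was middle at 4.02, 4.02 and 4.17. Of 22 citrate cycle genes, 17 were high (77.3%) and 4 upper, and the 1 near background, PDHA2 at 2.17 ± 0.04, is the testis form of pyruvate dehydrogenase. IDH1 and IDH2 were high at 9.35 ± 0.14 and 9.15 ± 0.12 (SD, n = 3 each).

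Glucose use showed a similar division between isoforms. Of 37 transporter and glycolysis genes, 13 were high (35.1%), 5 upper, 14 middle and 5 near background. LDHB read 11.20, 11.01 and 11.13 and LDHA 10.70, 10.49 and 10.61, while LDHC, the testis form, was middle at 3.86. PKM read 8.48, 9.58 and 8.56, with an SD of 0.61 that came from replicate 3. Among transporters the fructose carrier SLC2A5 was the 1 high gene at 7.88, 8.03 and 7.96. SLC2A1 was upper at 5.98, 5.99 and 5.99 and the insulin-responsive SLC2A4 near background at 1.76, 1.89 and 1.60. However, SLC2A1 was near background with its middle probe set and on probe sets not named _s_at, _x_at or _a_at. In the gluconeogenesis and glycogen list 3 of 14 were high (21.4%), and PCK1, the cytosolic entry enzyme of liver, was near background at 0.89 ± 0.06 (SD, n = 3).

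The pentose phosphate pathway, which makes NADPH and ribose, was high with TKTL1 among its members. This transketolase-like gene read 10.09, 10.05 and 10.05, at percentile 99.2, and both of its probe sets were high. TKT, the main transketolase gene, read 10.22, 10.31 and 10.29, though it was in the middle on probe sets not named _s_at, _x_at or _a_at. The relative TKTL2 was near background at 1.32, 1.35 and 1.27. TALDO1 and PGD were high at 9.47 ± 0.07 and 9.41 ± 0.08 (SD, n = 3 each). In all, 7 of 9 genes of this pathway were high (77.8%), 1 upper and 1 near background.

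Genes of lipid synthesis were mostly high or upper, and those of uptake and storage were spread over the classes. Of 20 cholesterol and fatty acid synthesis genes, 8 were high (40%), 10 upper, 1 middle and 1 near background. ACLY, which makes cytosolic acetyl-CoA, read 9.20, 9.17 and 9.28, and SCD, the stearoyl-CoA desaturase, read 8.73, 8.72 and 8.69. FASN read 7.17, 8.24 and 7.21 and was highest on replicate 3. Of 27 genes of uptake, storage and efflux, 8 were high (29.6%) and 8 near background. FABP5 was high at 9.27 ± 0.08 and its macrophage relative FABP4 near background at 1.94 ± 0.21 (SD, n = 3 each). ABCG1, a cholesterol exporter of macrophages, was near background and ABCA1 in the middle.

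Amino acid genes were high in 14 of 29 (48.3%). Serine synthesis was represented by PHGDH (7.74, 7.92 and 7.69), PSAT1 (8.09 ± 0.09, SD, n = 3) and PSPH, all high. ASS1, the argininosuccinate synthase, was high at 8.66, 8.87 and 8.70. ASNS, asparagine synthetase, was upper at 5.87, 5.65 and 5.59, and CTH, the cystathionine lyase, near background at 2.18 ± 0.04 (SD, n = 3). However, ASNS was near background with its middle probe set and on probe sets not named _s_at, _x_at or _a_at. For iron, FTL (11.39 ± 0.06) and the transferrin receptor gene TFRC (9.51 ± 0.12) were high, while HMOX1, the inducible haem oxygenase, was near background at 2.90 ± 0.14 (SD, n = 3 each). That iron and haem list had 4 high of 21 (19%), near the background share.

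The mitosis list had the highest share of high genes among the 55 lists. Of its 24 genes 23 were high (95.8%) and 1 upper, AURKB. Of 24 DNA replication genes 19 were high (79.2%) and 5 upper. CDC20, the activator of the anaphase-promoting complex, read 9.96, 10.12 and 9.95, and TYMS, thymidylate synthase, read 10.76, 10.79 and 10.82. Of 18 cyclins and cyclin-dependent kinases 9 were high (50%) and 6 upper. CCND3, a D-type cyclin, was high at 9.15, 9.44 and 9.27, whereas CCND1 was middle at 4.77, 5.35 and 4.91 and CCND2 near background at 2.79, 2.84 and 2.56. CCND1 was upper without replicate 2, and CCND2 middle without replicate 3. CCNA1, the germ cell and myeloid form of cyclin A, was upper at 6.66, 6.37 and 6.55. The plot of metabolic, cycle and receptor genes shows the contrast with the receptor lists.

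**Figure D5:**
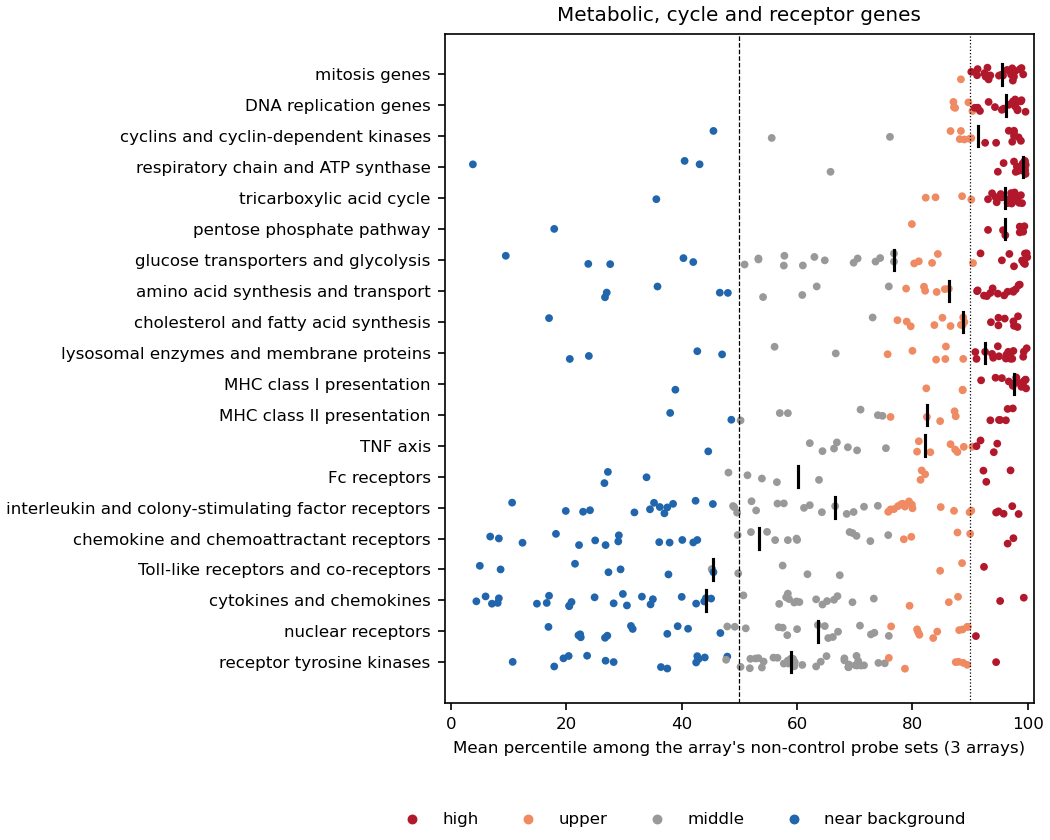
Mean percentile among the array's non-control probe sets (horizontal axis, mean of 3 untreated arrays) of each measured gene in 20 lists (vertical axis), with class by colour, list medians as black bars and lines at the 50th and 90th percentiles. Mitosis and replication lists have medians of 95.6 and 96.2, the Toll-like receptor list one of 45.4 and the cytokine list one of 44.2.

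The promoters of mitosis genes were rich in CpG, unlike the myeloid ones. All 19 with a promoter had a CpG ratio of at least 0.6, with a median of 0.91. The NF-Y sequence CCAAT was found in 16 of 19 (84.2%), against 33% of all promoters. Promoters of the late cell cycle are known for the sequence TTTGAA, called the cell cycle genes homology region. It was found in 10 of 19 (52.6%), against 13.6% of all promoters and 10.6% of those of all measured genes. The share varied in other lists, so it was not particular to mitosis genes. TTTGAA was in 5 of 10 Toll-like receptor list promoters (50%), 5 of 22 monocyte marker promoters (22.7%) and 1 of 12 T cell marker promoters (8.33%). No mitosis gene promoter among the 19 held the purine-rich sequence GAGGAAG. Of 22 replication gene promoters, 14 (63.6%) held the NF-Y sequence and 1 (4.55%) the homology region. The homology region was added to the search after the data had been seen. The following 120 bases before the start are shown for 3 high mitosis genes that hold both sequences there, with the matches in capitals. Not all high mitosis genes do. In the same stretch CCNB1 and TOP2A held CCAAT (on either strand) without TTTGAA, and BUB1B held TTTGAA without CCAAT.
CCNB2, chr15:59105026-59105145, plus strand: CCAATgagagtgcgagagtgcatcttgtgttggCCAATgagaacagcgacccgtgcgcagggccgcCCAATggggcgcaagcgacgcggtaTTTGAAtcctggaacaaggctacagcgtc
CDC20, chr1:43358861-43358980, plus strand: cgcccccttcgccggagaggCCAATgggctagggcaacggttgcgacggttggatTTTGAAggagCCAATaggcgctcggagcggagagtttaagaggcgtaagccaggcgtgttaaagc
PLK1, chr16:23678769-23678888, plus strand: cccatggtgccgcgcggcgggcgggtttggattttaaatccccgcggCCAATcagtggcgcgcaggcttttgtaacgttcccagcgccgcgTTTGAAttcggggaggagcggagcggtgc

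CCNB2, a B-type cyclin, and PLK1, the polo-like kinase that drives entry into mitosis, were both high, at 8.62 and 7.46. The printed CCNB2 stretch has CCAAT starting 120, 87 and 54 bases before the start, that of CDC20 at 100 and 55 bases, and that of PLK1 at 73 bases. These are counts of letters, and no binding was measured.

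Inhibitors and checkpoint genes of the cycle were divided between the high, upper and middle classes. Of 23 inhibitor and checkpoint genes, 8 were high (34.8%), 10 upper and 5 middle. RB1, the retinoblastoma gene, read 7.68, 7.35 and 7.65 and CDKN1B 7.29, 6.97 and 7.17. CDKN1A was upper at 6.38, 6.73 and 6.51. The 5 middle genes were CDKN2A (4.73, 4.83 and 4.48), CDKN2B (3.27, 3.17 and 3.13), CDKN2D, CDKN1C and MTAP (3.27, 3.61 and 3.10). CDKN2B and MTAP were below the 95th percentile of the reference genes for background, 3.94, on each array.

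Survival genes of the BCL2 family were high in 5 of 17 (29.4%, against 16.5% of all genes). MCL1, a short-lived protector of myeloid cells, read 9.07, 8.94 and 9.05. BCL2 read 6.87, 6.66 and 6.90 and was high without replicate 3. BCL2A1, a protector induced by inflammatory signals, was near background at 1.69, 1.82 and 2.12. Among 18 cancer-testis genes 0 were high and 11 near background (61.1%), with PRAME upper at 6.26, 6.07 and 6.22. TERT, the catalytic subunit of telomerase, was middle at 4.12, 4.34 and 4.40, and 4 of 9 genes of the telomerase list were high.

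The 30 highest genes were mostly those of translation and the cytoskeleton. Their means ran from 11.36 to 11.91, 18 of them encode ribosomal proteins, and 28 were read on probe sets whose names end in _x_at or _s_at, which can match more than 1 transcript. ACTB was at the top with 11.89, 11.89 and 11.94. EEF1A1, TUBA1B, PPIA, TPT1, GAPDH, YBX1 and FTL were also there, and so were the mitochondrial genes ND4 and COX2. SRGN was the 1 gene of these 30 from the granule list.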

How the data were processed

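RNA of THP-1 cells was labelled with biotin and hybridised to Affymetrix expression arrays with 54675 probe sets, of which 62 are controls. The authors deposited 1 log2 value per probe set and array, with 2 decimals. GCRMA and GCOS 1.3.0 appear in the submitters' processing notes; how arrays were normalized to each other, and the zero of the scale, are not stated there. A background step of that kind can shift low values, so order among low genes is least certain.

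Of the non-control probe sets 41091 had 1 gene symbol, 1801 several and 11721 none in the platform annotation, and those with several or none were not used as genes. Symbols were updated by Entrez number (41037 matched) to RefSeq GRCh38.p14, and 9252 genes had 1 probe set and 10523 more. Percentiles were computed per array with pandas 2.3.3 and numpy 2.4.6 in Python 3.11.15, and figures drawn with matplotlib 3.10.9. The classing was tested on simulated data.

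The untreated arrays form 1 group, so no test between groups was made. The 55 gene lists hold 1214 genes, of which 1107 were measured; the others were not analysed here. Members and lists were chosen with earlier results of these data known. Named with values are the key genes of each list, up to 5 highest high and 3 lowest near-background genes per list, the 30 highest genes and the 15 with the largest SD. The alternatives tried were other probe set choices, other limits, other quantiles and leaving out each array. Gene families, neighbours and the motif TTTGAA were chosen after seeing the data.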

Additional observations from a re-analysis of the deposited data

How the results depend on the processing

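The class counts depend on the choice of probe set and limits more than on any array. The high class of 3262 genes fell to 1642 with the middle probe set of each gene, to 1776 without probe sets named _s_at, _x_at or _a_at, to 1587 at the 95th percentile and to 1789 with quantiles over genes. It held 3311 to 3442 genes when 1 array was left out and 3537 with the percentile of the mean. The near-background class of 6239 genes moved to 2304 at the 25th percentile and to 9472 with quantiles over genes. It lay between 6354 and 6442 with 1 array left out and between 6571 and 9090 under the other choices. Of 342 key genes, 103 took another class with the middle probe set, 43 without the named probe set types, 124 with quantiles over genes, 77 with the stricter limits (95th and 25th percentiles), 42 with the background limit from the reference genes, 22 with the percentile of the mean, and 5, 16 and 2 without replicates 2, 3 and 4. High key genes that lay near background on the remaining probe sets were ITGB1, B2M, GLUL, ANXA2 and IFNGR1 without the named types, and COX6A1, ITGB1, MDM2, PLIN2 and S100A6 with the middle probe set. Counts within lists moved by over 1.5 times in 72 of 110 cases with the stricter limits, 47 with the middle probe set, 45 with quantiles over genes, 43 without the named types, 3 with the percentile of the mean, 3 without replicate 3, 1 without replicate 2 and 0 without replicate 4. With the reference limit 22 near-background counts moved and 33 did not. In 815 of the 3262 high genes at least 1 probe set was near background. Changes of class with the probe set are given above for some genes only. The high genes CCND3, PKM, PGD, TFRC, SCD, FASN, RB1 and CD74, for example, were also in the middle class with their middle probe sets. No paired analysis was possible because the profile uses 1 group only. Signal near background limits the middle class.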

Other observations

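Gene families were counted by symbol, a choice made after seeing the data. Outside the olfactory receptors and TRIM genes, they leave out antisense genes, pseudogenes and genes that share only the start of the symbol. The symbols of olfactory receptors include pseudogenes. Those of TRIM genes include the antisense genes TRIM52-AS1 and TRIM67-AS1 and the pseudogene TRIM64EP. Against 16.5% of all genes, 53 of 59 cytosolic ribosomal protein genes and their close relatives were high (89.8%), and so were 65 of 75 mitochondrial ribosomal protein genes (86.7%), 33 of 33 complex I genes, 35 of 38 proteasome genes (92.1%) and 36 of 40 translation initiation factor genes (90%).

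Against 31.5% of all genes, 11 of 11 interferon alpha genes were near background, as were 73 of 102 olfactory receptor genes (71.6%), 27 of 38 GABA and glutamate receptor genes (71.1%), 29 of 44 protocadherin genes (65.9%), 42 of 73 potassium channel genes (57.5%), 23 of 43 collagen genes (53.5%) and 23 of 44 keratin genes (52.3%). The keratins had 4 high genes and the potassium channels 1. Claudins, which seal epithelia, were near background in 5 of 20 (25%), below the share of all genes, with 15 in the middle and 0 high. Solute carriers, with 42 of 344 high (12.2%) and 98 near background (28.5%), were near the shares of all genes. Of 453 ZNF genes 16 were high (3.53%) and 118 near background (26%), and of 59 TRIM genes 6 were high (10.2%) and 11 near background (18.6%).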
